A study of Mus musculus with 12 samples.

Results

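The Bcl2 family regulators of apoptosis were described here in the livers of ob/ob mice given ethionine and of ob/ob mice given chow alone. The family was taken as a fixed list of 10 genes, found by symbol in the table of raw counts. They comprised 4 pro-survival genes (Bcl2, Bcl2l1, Mcl1 and Bcl2l2) and 6 pro-death genes (Bcl2l11, Bid, Bad, Bak1, Bik and Bmf). All 10 members were found among the 56205 gene identifiers of the table, and all 10 passed the filter on low counts, which left 13416 genes to test.

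Poly(A)-selected RNA from whole liver was sequenced in 12 mice, 6 per group, with 1 library per mouse. All animals were male ob/ob mice of the B6.Cg-Lep ob/J strain, young adults at the start of treatment, which lack functional leptin and become obese with fatty livers. The FLO group (OBOB_FLO) received a standard chow diet, and the fibrotic group (OBOB_Fibrotic) received the same chow with DL-ethionine, an ethyl analogue of methionine that is toxic to hepatocytes. The name fibrotic is that of the sample titles. For ob/ob mice given ethionine the paper reported no change in Col1a1 or Zfp469, and it described the model by microvesicular steatosis and inflammation. The sources disagree on the exposure, since 0.165% in drinking water for 2 weeks is stated in one description and an injection of 0.15% in another, and the study's methods give a shorter course in drinking water. Every mouse therefore carried the same leptin mutation, and a group without it was not analysed here.

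Each library held 17815568 to 24814263 counts in all. The hepatocyte markers Alb, Apoa1, Ttr and others summed to 72756 to 116504 CPM (read counts relative to the library size after TMM scaling) in the fibrotic group and to 100172 to 114511 CPM in the FLO group, so every library had the transcripts of liver. Mitochondrially encoded transcripts took 4.93% to 7.88% of all reads counted in the fibrotic group and 7.30% to 10.2% in the FLO group. Xist, which is transcribed from the silenced X of females, had 3773 counts in the library labelled FLO replicate 3 and at most 4 in the other 11, although all mice are described as male. Calls of the members and of Bbc3 that changed without that library are given beside the results.

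Apoptosis through mitochondria is decided by binding among Bcl2 family proteins. The effectors Bax and Bak1 form pores in the outer mitochondrial membrane, the pro-survival proteins hold the effectors and their activators in check, and the BH3-only proteins (here Bcl2l11, Bid, Bad, Bik and Bmf) tip the balance by occupying the pro-survival proteins or by activating the effectors. In hepatocytes Mcl1 and Bcl2l1 (Bcl-xL) are both needed to keep cells alive, and Bid links death receptors on the cell surface to mitochondria. Much of the control of these proteins is exerted after transcription, through cleavage, phosphorylation and degradation, which RNA counts do not measure.

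The start regions of Bcl2l11, Bak1 and Bcl2l1 are shown because these were the only members past the false discovery threshold in the comparison of the groups. The windows are from RefSeq on the mouse build GRCm38.p6 and span 250 bases before to 50 bases after the annotated start, which were available for 9 of the 10 members. Bcl2l11 had 2 such windows, Bcl2l1 had 3 and Bak1 had 1. The window nearest the gene start in GENCODE M21 was taken, and other starts are not shown. The Bak1 window lies inside its GENCODE gene model, which reaches position 27029009. They lie at chr2:128125788-128126087 on the plus strand for Bcl2l11, at chr17:27028578-27028877 on the minus strand for Bak1 and at chr2:152831679-152831978 on the minus strand for Bcl2l1. Each is written 5′ to 3′ in the direction of the gene, and capitals mark matches on either strand to the motifs listed after the sequences, apart from the GC box, which was left in lower case.

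Bcl2l11: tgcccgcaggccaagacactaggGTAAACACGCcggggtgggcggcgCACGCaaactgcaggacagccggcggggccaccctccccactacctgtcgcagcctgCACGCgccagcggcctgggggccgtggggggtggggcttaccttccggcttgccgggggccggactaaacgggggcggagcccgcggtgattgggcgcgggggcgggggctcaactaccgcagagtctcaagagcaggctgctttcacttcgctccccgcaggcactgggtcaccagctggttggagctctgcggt

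Bak1: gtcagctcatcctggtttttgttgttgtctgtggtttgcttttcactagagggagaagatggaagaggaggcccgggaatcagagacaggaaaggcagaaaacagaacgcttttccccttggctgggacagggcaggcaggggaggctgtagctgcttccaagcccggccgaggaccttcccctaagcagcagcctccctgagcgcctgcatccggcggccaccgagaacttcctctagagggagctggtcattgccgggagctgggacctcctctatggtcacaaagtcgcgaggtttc

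Bcl2l1: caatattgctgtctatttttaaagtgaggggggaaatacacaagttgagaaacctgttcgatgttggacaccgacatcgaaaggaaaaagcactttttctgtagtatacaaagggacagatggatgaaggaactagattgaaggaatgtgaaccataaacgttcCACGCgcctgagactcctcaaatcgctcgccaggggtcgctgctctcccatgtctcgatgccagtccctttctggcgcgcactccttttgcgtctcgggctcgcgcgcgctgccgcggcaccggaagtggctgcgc

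The Bcl2l11 window held 1 match to the FOXO letters GTAAACA, which occur in 3.65% of the 32851 promoter windows of the same length. It also held 3 matches to the Ah receptor core GCGTG, found in 32.4% of windows, and the first of these overlapped the FOXO match. The GC box GGGCGG matched 3 times in the Bcl2l11 window, against 35.7% of all windows with a match, and G and C made up 71.0% of its bases with 27 CpG dinucleotides. The Bcl2l1 window held 1 match to GCGTG, 52.3% G and C and 22 CpG dinucleotides. The Bak1 window held none of the 9 motifs searched, and it had 58.3% G and C and 11 CpG dinucleotides, against medians of 52.7% and 7 over all windows. The other motifs searched were TGACG (the core of a cyclic AMP response element, 20.8% of windows), TGANTCA (AP-1, 7.81%), TTCNNNGAA (STAT, 8.30%), TGATGNAA (C/EBP-ATF, 3.97%), TATAAA (13.6%) and the p53 half-site (8.36%). These matches describe the letters of the windows and are not evidence that a factor binds there.

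The comparison of the groups asked how the transcripts of the family differed between ethionine-treated and control livers. Of the 10 members, 2 were called different at a false discovery rate (FDR) of 0.01 with an absolute log2 fold change over 0.5, both pro-death genes that were higher in the fibrotic group. These were Bcl2l11, the BH3-only activator Bim, and Bak1, a pore-forming effector. In the same fit 29.9% of all genes tested were called, 15.9% higher and 14.0% lower, so the share of members called (2 of 10) lay below that of all genes. None of the 4 pro-survival genes was called (0 of 4), and no member was called lower. The median log2 fold change, fibrotic against FLO, was 0.07 over the pro-survival and 0.09 over the pro-death members, beside 0.03 over all genes tested. At the FDR threshold with any fold change, 3 members passed (Bcl2l11, Bak1 and Bcl2l1), against 38.9% of all genes. The values of the 2 groups did not overlap for 1 member, Bak1, against 30.4% of all genes. Adjusted p-values are from the edgeR quasi-likelihood test with Benjamini-Hochberg adjustment over all genes tested. In whole-tissue RNA, fewer cells of a type and less RNA per cell cannot be told apart.

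**Figure D1:**
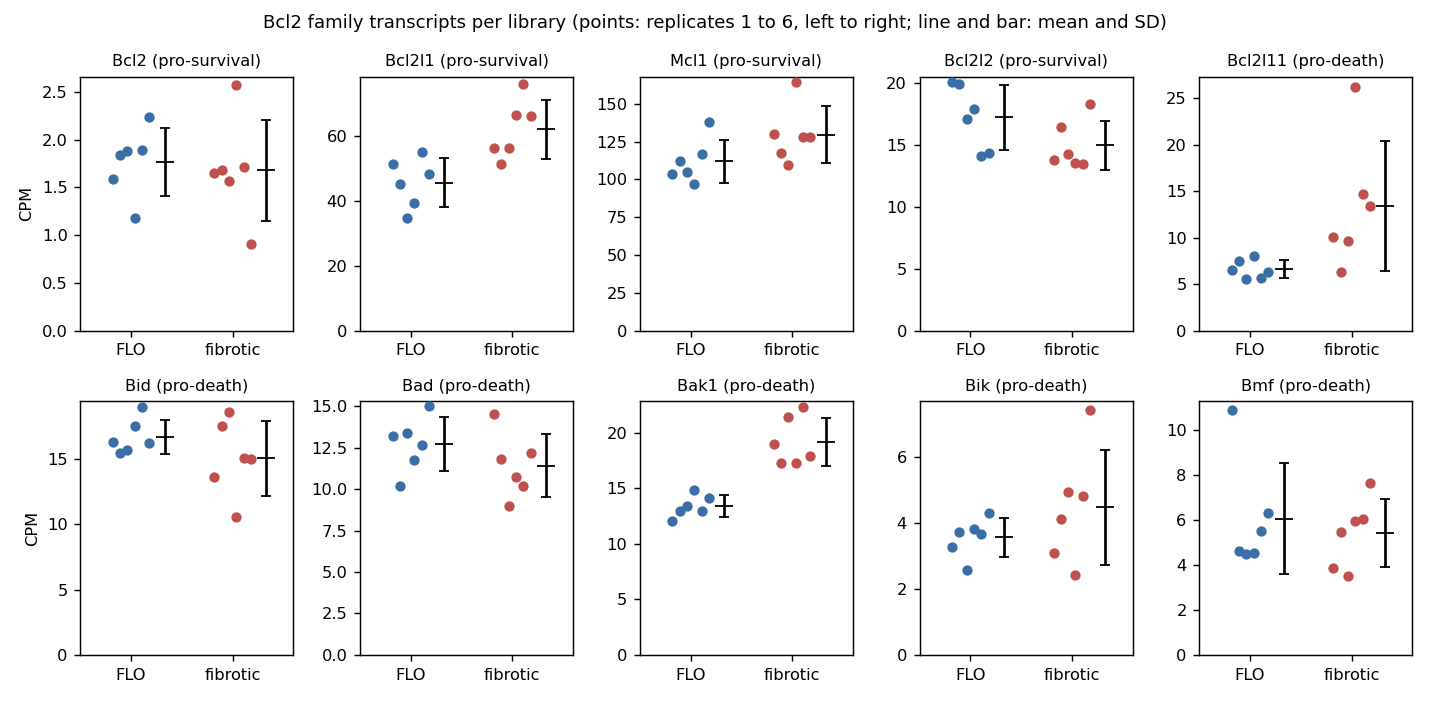
Level of each of the 10 members in CPM (vertical axis, from 0, linear) in the 6 FLO (blue) and 6 fibrotic (red) libraries; each point is 1 mouse in the order of its replicate number, and the line and bar to the right are the mean and SD. The fibrotic Bak1 values (17.3 to 22.3 CPM) all lie above the FLO values (12.1 to 14.8 CPM), and fibrotic replicate 4 has the highest Bcl2l11 value, 26.3 CPM.

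Among the pro-survival genes, Bcl2l1 showed the largest difference. Its level ranged from 51.2 to 76.0 CPM (median 61.2) in fibrotic and from 34.7 to 55.1 CPM (median 46.6) in FLO livers. All 6 fibrotic livers lay above the FLO median, but the ranges overlapped. The mean was 62.0 ± 9.09 CPM (SD, n = 6) against 45.6 ± 7.57 CPM (SD, n = 6), and the edgeR fit gave 0.45 on the log2 scale with a standard error (SE) of 0.12 and an FDR of 0.00571. The difference thus passed the FDR threshold but was under the fold threshold, and the gene was not called. A two-sided exact permutation test of the mean log2 CPM over every assignment of 6 livers against 6 gave p = 0.00649, where the smallest possible p is 0.00216. With 1 library left out it passed the FDR threshold in 7 of 12 fits, with FDRs from 0.00321 to 0.0165. It failed without FLO replicate 3 (FDR 0.0124, log2 fold change 0.38), FLO replicates 2 and 4, and fibrotic replicates 5 and 6. Both thresholds were passed only without FLO replicate 5, at 0.50 on the log2 scale.

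Mcl1, the short-lived pro-survival protein on which hepatocytes depend, was the most abundant member in every library. It ranged from 110 to 164 CPM (median 128) in fibrotic and from 97.2 to 138 CPM (median 108) in FLO livers, and all 6 fibrotic values lay above the FLO median. Its log2 fold change was 0.21 (SE 0.11, edgeR FDR 0.111), with a 95% interval from -0.02 to 0.43. This difference did not pass the threshold, and the interval does not extend to the fold threshold of 0.5.

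Bcl2l2 (Bcl-w), a pro-survival relative of Bcl2l1, ranged from 13.5 to 18.3 CPM in fibrotic and from 14.1 to 20.1 CPM in FLO livers, with 5 of 6 fibrotic values under the FLO median. Its log2 fold change of -0.20 (SE 0.11) had a 95% interval from -0.45 to 0.04 and did not pass the test, with an edgeR FDR of 0.149. Part of its exonic sequence, 594 of 4462 bases, is shared on the same strand with the gene model Gm20521, which had 22 to 72 counts per library, so reads from that stretch could have gone to either. Bcl2, the founding member of the family, was the least abundant, with 18 to 55 counts per library. Its level ranged from 0.911 to 2.57 CPM in fibrotic and from 1.18 to 2.23 CPM in FLO livers, so that the FLO range lay inside the fibrotic range. The log2 fold change was -0.07 with a 95% interval from -0.57 to 0.43 (edgeR FDR 0.823), so a change at the fold threshold was not excluded.

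Bcl2l11 had the largest fold change of the 10 members, and among fibrotic livers the largest coefficient of variation. In the fibrotic group it ranged from 6.32 to 26.3 CPM (median 11.7), and in the FLO group from 5.56 to 7.98 CPM (median 6.40). The fibrotic livers other than replicate 2 all lay above the highest FLO value, replicate 2 lay within the FLO range, and replicate 4 was the highest. The coefficient of variation was 52.1% among fibrotic and 14.8% among FLO livers. The mean was 13.4 ± 6.97 CPM (SD, n = 6) against 6.59 ± 0.977 CPM (SD, n = 6), and the edgeR log2 fold change was 1.02 (SE 0.27, FDR 0.00578), or 2.03-fold. The exact permutation test gave p = 0.00866. Without fibrotic replicate 4 the log2 fold change was 0.72 and the call held, with an edgeR FDR of 0.00445. The call did not hold without FLO replicate 3 (FDR 0.0135), nor in 6 of the other fits that left out 1 library, where the FDR reached at most 0.0143 and the log2 fold change between 0.98 and 1.06. The direction was the same in every one of these fits.

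Bcl2l11 is also expressed in cells of the immune system, and markers of other cell types differed between the groups. Over all genes tested, 15.9% were called higher and 14.0% lower. Of 10 Kupffer cell and macrophage markers, 8 were called higher and 0 lower, with a median log2 fold change of 0.78. Their summed level was 309 to 641 CPM in fibrotic and 247 to 278 CPM in FLO livers. The lowest and highest of the fibrotic sums belonged to replicates 2 and 4, the same livers that had the lowest and highest Bcl2l11. Between these extremes the order of the sums was not that of Bcl2l11. In the FLO group the highest sum, 278 CPM, belonged to replicate 5, where Bcl2l11 was at 5.69 CPM, under the group median of 6.40 CPM. Of 8 cholangiocyte markers, 6 were tested and 3 called higher, with a sum of 96.6 to 297 CPM in fibrotic against 59.8 to 102 CPM in FLO livers. Of 12 lymphocyte markers only 3 were tested and 0 called, and the whole list summed to 9.12 to 15.3 CPM against 7.22 to 14.3 CPM. The neutrophil list summed to 3.18 to 8.10 CPM against 1.91 to 6.25 CPM, with 1 of 2 tested genes called higher. Of 8 endothelial markers 1 was called lower (148 to 194 CPM against 205 to 232 CPM), of 9 stellate cell markers 1 was called higher (406 to 548 CPM against 378 to 474 CPM), and of 10 hepatocyte markers 2 were called higher and 2 lower. No marker was at 0 in every library. The part of these cells in the Bcl2l11 and Bak1 differences was not tested.

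Bak1 had the clearest separation of the groups. It ranged from 17.3 to 22.3 CPM (median 18.4) in fibrotic and from 12.1 to 14.8 CPM (median 13.2) in FLO livers, so the lowest fibrotic liver exceeded the highest FLO liver. The mean was 19.2 ± 2.18 CPM (SD, n = 6) against 13.4 ± 0.985 CPM (SD, n = 6), a 1.43-fold difference. Its log2 fold change was 0.52 (SE 0.09, edgeR FDR 0.000209), with a 95% interval from 0.33 to 0.71 that spans the fold threshold. The exact permutation test gave p = 0.00216, the smallest this design allows. The FDR stayed at or under 0.000789 whichever library was left out, but the fold change fell just short of 0.5 on the log2 scale, and the call with it, without fibrotic replicate 3 (0.49), fibrotic replicate 5 (0.48) or FLO replicate 1 (0.49). Bak1 overlaps 2 gene models of Ggnbp1 on the opposite strand, which share 437 and 177 of its 2407 exonic bases. The first of these had 26 to 66 counts in fibrotic and 144 to 236 counts in FLO libraries, a difference in the other direction from Bak1, and whether the counting used strand is not given in the sources used here.

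**Figure D2:**
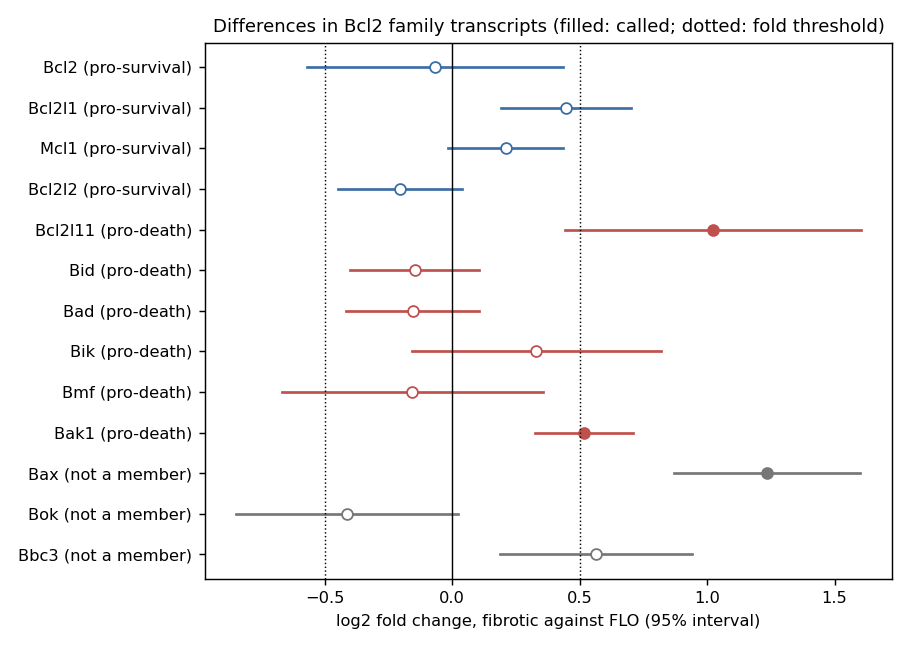
Log2 fold change of the 10 members and of Bax, Bok and Bbc3, fibrotic against FLO (horizontal axis), with 95% intervals from the edgeR fit of 12 libraries; filled points were called and dotted lines mark a log2 fold change of 0.5 in either direction. Bcl2l11 (1.02) and Bak1 (0.52) are the members called, and the interval of Bcl2l1 (0.19 to 0.70) excludes 0 but spans the threshold.

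The remaining BH3-only genes did not pass the test. Bid, which caspase-8 cleaves to its active form, ranged from 10.6 to 18.6 CPM in fibrotic and from 15.4 to 19.0 CPM in FLO livers. The log2 fold change of Bid was -0.15, with a 95% interval from -0.40 to 0.11 and an edgeR FDR of 0.319. Bad, whose binding to Bcl2l1 is regulated by phosphorylation, ranged from 9.0 to 14.5 CPM in fibrotic and from 10.2 to 15 CPM in FLO livers, with a log2 fold change of -0.16 (95% interval from -0.41 to 0.10, edgeR FDR 0.302). For both genes the intervals lie within 0.5 on the log2 scale in either direction. Each shares exonic bases with a neighbour on the opposite strand, 628 of 3550 bases of Bid with Bcl2l13 and 524 of 2558 bases of Bad with Gpr137.

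Bik and Bmf were measured with fewer counts, 52 to 147 and 65 to 199 per library, and with less precision. Bik, a BH3-only protein of the endoplasmic reticulum, ranged from 2.43 to 7.44 CPM in fibrotic and from 2.57 to 4.32 CPM in FLO livers, so that the FLO range lay inside the fibrotic range. The log2 fold change of Bik was 0.33 with a 95% interval from -0.16 to 0.82 (edgeR FDR 0.245). Bmf, which is held at the cytoskeleton through a dynein light chain, ranged from 3.50 to 7.65 CPM in fibrotic and from 4.49 to 10.9 CPM in FLO livers. The highest Bmf value was that of FLO replicate 1, and the other 5 FLO values lay between 4.49 and 6.30 CPM. The log2 fold change of Bmf was -0.16 with a 95% interval from -0.67 to 0.36 (edgeR FDR 0.608), and it was 0.09 without FLO replicate 1. For Bik and Bmf a change past the fold threshold was therefore not excluded by the interval.

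To compare levels between genes, counts were divided by the length of the longest annotated transcript and scaled to the same total in each library (TPM). On this scale Mcl1 had the highest mean level in FLO livers, 58.8 TPM, followed by Bcl2l1 at 31.7 TPM, Bad at 14.8 TPM and Bid at 12.4 TPM. Bak1 was at 10.1 TPM, Bcl2l2 at 8.15 TPM, Bik at 4.79 TPM, Bcl2l11 at 2.36 TPM, Bmf at 2.33 TPM and Bcl2 at 0.441 TPM. The ranges of neighbours in this order overlapped for Bad and Bid, for Bak1 and Bcl2l2, and for Bcl2l11 and Bmf. Within a liver, these pairs were in this order in 6 of 6, 5 of 6 and 3 of 6 FLO livers. In fibrotic livers Bak1 came next after Bcl2l1, above Bad in 3 of 6 livers, and Bcl2l11 exceeded Bmf in 6 of 6. Below Mcl1 and Bcl2l1 the order of the group means depended on the length used. With the mean transcript length, fibrotic Bak1 (13.95 TPM) lay below Bid (15.89 TPM) and Bad (15.19 TPM). In FLO livers that length put Bid (15.54 TPM) above Bad (14.77 TPM) and Bcl2l2 (11.18 TPM) above Bak1 (8.51 TPM). It also put Bmf above Bik (4.70 TPM) and Bcl2l11 (3.56 TPM) there. Mcl1 made up 59.3% ± 3.50 (SD, n = 6) of the summed pro-survival TPM in FLO and 57.2% ± 3.29 (SD, n = 6) in fibrotic livers. TPM were not TMM-scaled, and the difference between the groups lay 0.21 higher on the log2 scale than in CPM for the median gene, so TPM were used only within a library.

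The summed TPM of the 6 pro-death members, divided by that of the 4 pro-survival members, was 0.475 ± 0.0452 (SD, n = 6) in FLO and 0.441 ± 0.0533 (SD, n = 6) in fibrotic livers. The ratio ranged from 0.425 to 0.547 and from 0.346 to 0.50, so that the groups overlapped, and its mean was not higher in the fibrotic group. Bcl2l11 rose from a low base and held 1.62% ± 0.311 of the TPM of all 10 members in FLO against 2.73% ± 1.21 in fibrotic livers (SD, n = 6 each). Bak1 held 6.93% ± 0.835 against 8.50% ± 1.22, while Bid held 8.54% ± 0.830 against 6.68% ± 1.72 and Bad 10.2% ± 1.17 against 7.86% ± 1.5. Bcl2l1, a pro-survival member, held 21.7% ± 2.51 against 25.3% ± 2.19, the largest gain in share of any member. It was not called, and its shares overlapped, with 24.9% in FLO replicate 5 and 23.0% in fibrotic replicate 2. Fibrotic replicate 4, with the highest Bcl2l11 and Mcl1 and the lowest Bid, Bak1 and Bik of its group, had the lowest ratio, 0.346. No test was made on these sums, because their members were chosen with results known.

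**Figure D3:**
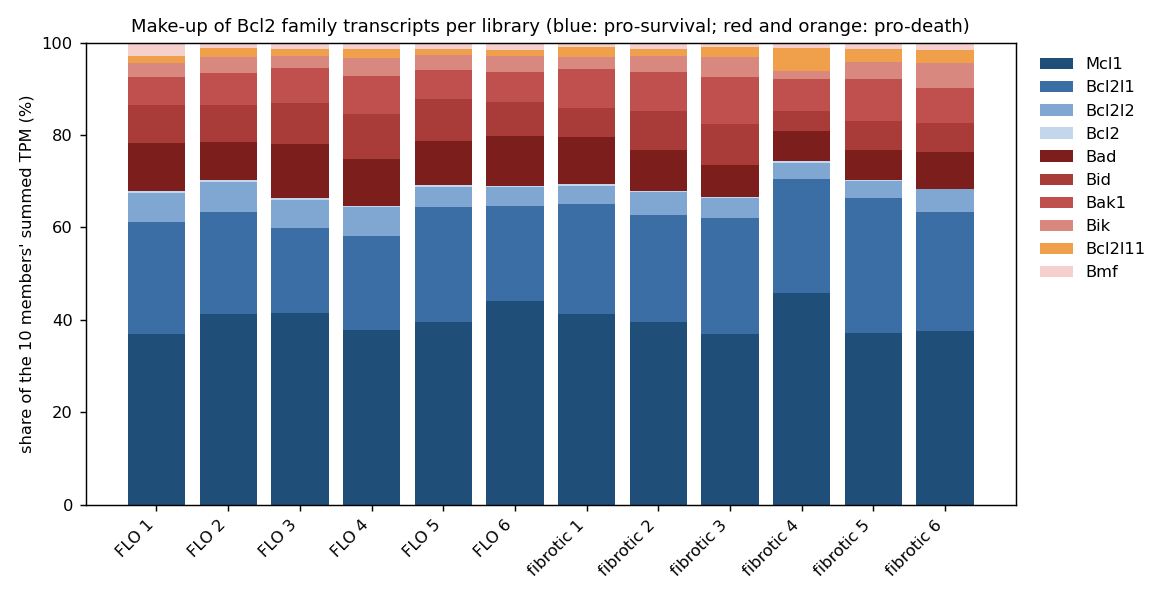
Share of each member in the summed TPM of the 10 members (vertical axis, %) in each of the 12 libraries, with pro-survival genes in blue and pro-death genes in red and orange. Mcl1 and Bcl2l1 make up most of every bar, and the blue part reaches similar heights in both groups, with fibrotic replicate 4 the highest.

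The list did not include the other effectors and some BH3-only genes, which were read from the same fit. Bax, the effector that works beside Bak1, ranged from 35.7 to 73.1 CPM (median 62.4) in fibrotic and from 20.7 to 27.3 CPM (median 23.6) in FLO livers, without overlap. The edgeR log2 fold change of Bax was 1.23 (SE 0.17, edgeR FDR 3.18e-05), above that of every member. With Bax added to the pro-death side, a sum formed after its value was seen, the ratio of pro-death to pro-survival TPM was 0.872 ± 0.0797 (SD, n = 6) in FLO and 1.21 ± 0.190 (SD, n = 6) in fibrotic livers. These ratios ranged from 0.762 to 0.991 and from 1.04 to 1.49. Bbc3 (Puma), a BH3-only gene, had a log2 fold change of 0.56 (SE 0.18) and an edgeR FDR of 0.0145, which did not pass the threshold. It was called without FLO replicate 3 (log2 fold change 0.69, FDR 0.00394) and without fibrotic replicate 3 (0.66, FDR 0.00524), and in no other fit that left out 1 library. Bok, an effector-like protein, was at -0.41 (edgeR FDR 0.104). Pmaip1 (Noxa) failed the low-count filter, at 0.203 to 1.31 CPM in fibrotic and 0.0856 to 0.574 CPM in FLO livers. Of the 15 other genes of the family, 8 were tested, of which 1 was called higher (Bax) and 1 lower, and their median log2 fold change was -0.10. Over all genes tested 29.9% were called. The gene called lower was Bnip3, which acts in the removal of mitochondria, at 80.3 to 113 CPM in fibrotic and 167 to 228 CPM in FLO livers (log2 fold change -1.01, SE 0.10, edgeR FDR 8.73e-07). Hrk, a BH3-only gene singled out after its values were seen, failed the filter with 0 to 2 counts (0 to 0.108 CPM) in fibrotic and 3 to 11 counts (0.128 to 0.559 CPM) in FLO livers. These ranges do not overlap, which also held for 30.4% of all genes tested. The exact permutation test gave p = 0.00216, the smallest it can give, which adds nothing to the absence of overlap. DESeq2, which tested the gene, called it lower. Bcl2a1a, Bcl2a1d, Bcl2l10, Bcl2l14 and Bcl2l15 were not tested, and the Bcl2a1 genes are near-identical copies whose reads may be split.

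Further genes of the pathway were counted in lists. Over all genes tested 29.9% were called, 15.9% higher and 14.0% lower, and the median log2 fold change was 0.03. Of 18 genes of caspase activation downstream of mitochondria, 1 was called higher and 0 lower, with a median log2 fold change of 0.10. That gene was Endog, a mitochondrial endonuclease, at 55.4 to 97.1 CPM in fibrotic and 30.7 to 35.8 CPM in FLO livers (log2 fold change 1.28, SE 0.12, edgeR FDR 8.37e-07). The other 17 genes, with cytochrome c (Cycs), Apaf1 and the caspases among them, were not called. At the FDR threshold with any fold change 4 genes of the list passed, against 38.9% of all genes. Beside Endog these were Vdac2 (log2 fold change 0.33, edgeR FDR 0.000988), Htra2 (0.38, FDR 0.00215) and Xiap (-0.46, FDR 0.0019), named after their values were seen. Apaf1 was at 0.73 with an edgeR FDR of 0.0117.

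Of 11 genes of the death receptor pathway, which reaches mitochondria through Bid, 9 were tested, 4 called higher and 0 lower, with a median of 0.30 on the log2 scale. Among all genes tested 15.9% were called higher. Tnfrsf10b, the receptor of the ligand Trail, ranged from 3.56 to 10.6 CPM in fibrotic and from 0.383 to 0.861 CPM in FLO livers, a log2 fold change of 3.43 (SE 0.30, edgeR FDR 3.5e-07). Fas, another death receptor, had a log2 fold change of 0.81 (edgeR FDR 7.29e-05), and Tradd, an adaptor of the TNF receptor, one of 0.80 (edgeR FDR 5.62e-06). The other gene called was Fadd, the adaptor of Fas, at 0.67 (edgeR FDR 4.81e-05), named after its value was seen. Fasl and Tnf did not pass the filter.

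Of 17 partners and regulators of turnover of Bcl2 proteins, 1 was called higher and 1 lower, with a median log2 fold change of -0.05. Over all genes tested 29.9% were called. At the FDR threshold with any fold change 7 of the 17 passed, against 38.9% of all genes. Dynll1, the dynein light chain that holds Bcl2l11 at microtubules, ranged from 17.2 to 34.1 CPM in fibrotic and from 8.80 to 13.4 CPM in FLO livers (log2 fold change 1.24, SE 0.16, edgeR FDR 1.32e-05). Tmbim6 (Bax inhibitor 1), a protein of the endoplasmic reticulum, was lower, with a log2 fold change of -0.57 (SE 0.09, edgeR FDR 6.63e-05). Of 13 transcription factors known to act on members, 1 was called higher and 3 lower, with a median of -0.08. The share called, 4 of 13, was near that of all genes. Trp53, which encodes p53, had a log2 fold change of 0.72 (SE 0.09, edgeR FDR 1.11e-05). Those called lower were Foxo4 at -0.77, E2f1 at -0.69 and Stat5b at -0.62 on the log2 scale, with edgeR FDRs of 4.9e-06, 0.00112 and 0.000872. The other FOXO genes of the list, named after their values were seen, were not called. Foxo1 was at 0.51 (edgeR FDR 0.0123) and Foxo3 at -0.08 (edgeR FDR 0.731).

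**Figure D4:**
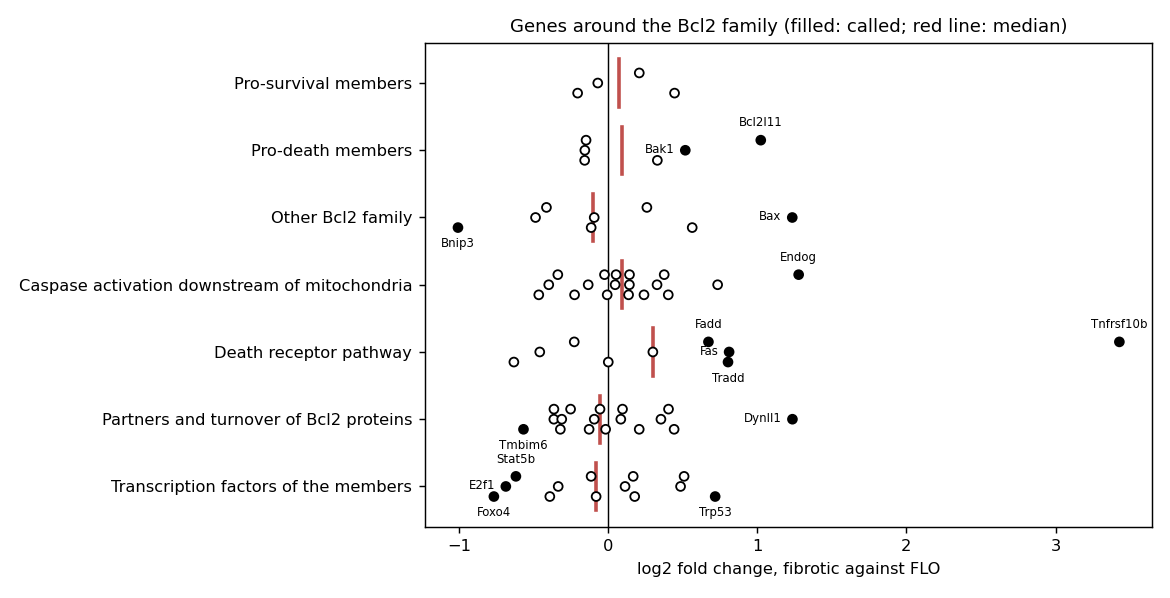
Log2 fold change, fibrotic against FLO (horizontal axis), of the tested genes of the 2 member lists and of 5 lists of related genes; each point is 1 gene, filled where called, and the red line is the median of the list. Bax (1.23), Endog (1.28), Dynll1 (1.24) and Tnfrsf10b (3.43) lie above both called members.

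The 3 members past the FDR threshold differed in how their calls depended on the analysis. Bcl2l11 lay above the fold threshold in every fit, at 0.67 to 1.17, while its FDR ranged from 0.000596 to 0.0199, on both sides of the FDR threshold. Bak1 passed the FDR threshold in every fit, with an FDR of at most 0.00197, but its log2 fold change of 0.48 to 0.55 lay on both sides of the fold threshold. Bcl2l1 passed the FDR threshold in the fit of all libraries but not in every other fit, and stayed under the fold threshold in every fit but one.

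**Figure D5:**
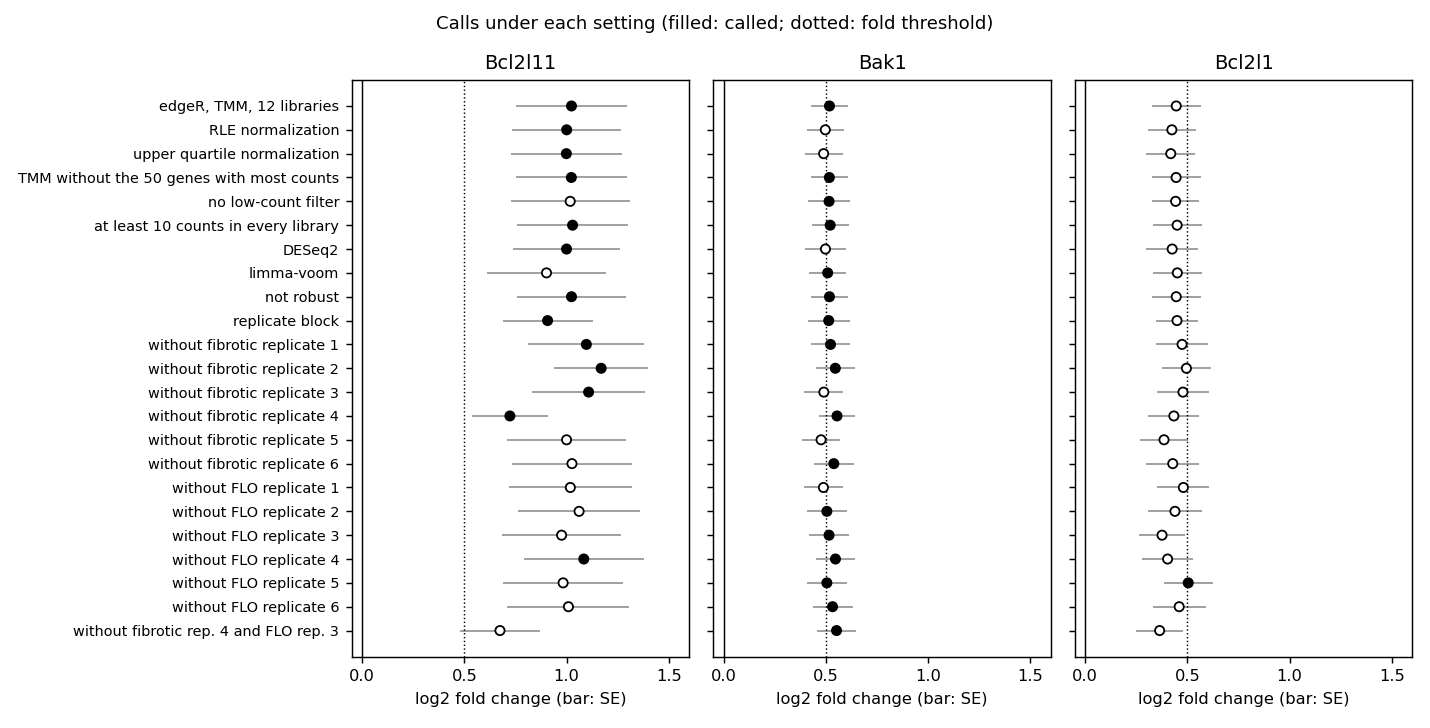
Log2 fold change of Bcl2l11, Bak1 and Bcl2l1 (horizontal axis, bars are SE) under the analysis of 12 libraries (top) and under each alternative, including each library left out; filled points were called and the dotted line marks a log2 fold change of 0.5. All points lie above 0. The calls of Bcl2l11 and Bak1 are both lost without fibrotic replicate 5 and without FLO replicate 1. Every other alternative shown ends at most 1 of them, and several end neither.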

How the data were processed

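Whole-liver poly(A) RNA was sequenced in 12 mice, and groups and replicate numbers were read from the sample titles. The deposited values are raw counts of reads per Ensembl gene, in 1 table. The submitters' processing notes name bcl2fastq, STAR 2.7.3a and mm10; the annotation and the use of strand are not given in the sources used here. Symbols matched 51745 of 56205 identifiers. Libraries of a group differed by more than sampling noise (smallest chi-square per degree of freedom 11.1).

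The main test was the quasi-likelihood F test of edgeR 4.0.16 (R 4.3.3) with TMM scaling, the filterByExpr filter and a robust fit; p-values were adjusted by Benjamini-Hochberg. Calls required an FDR of 0.01 or less and an absolute log2 fold change over 0.5, as in the study's methods. The script was tested on simulated data. Log2 CPM for exact tests used a prior count of 2. Alternatives were RLE and upper quartile scaling, TMM leaving out the 50 most counted genes, no filter or at least 10 counts in every library, DESeq2 1.42.0, limma-voom (limma 3.58.1), a replicate block, a fit without the robust option, each library left out, and other thresholds.

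The members and lists were chosen with earlier results of these data known. The genes named were all members, Bax, Bok, Bbc3 and Pmaip1, and in each pathway list up to 3 called genes at either end of the fold changes. Transcript lengths and overlaps are from GENCODE M21 (GRCm38). Each mouse gave 1 library, so the SDs include counting error.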

Additional observations from a re-analysis of the deposited data

Results flagged for a closer look

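Foxo4, a transcription factor of the list around the family, had 1 liver in each group that stood apart from the other 5. In the fibrotic group replicate 2 was the highest, and its gap to the nearest liver was 0.725 of the range of the group. In the FLO group replicate 6 was the lowest, with a gap of 0.630 of the range. Gaps were measured on log2 CPM (prior count 2) in each group, for the genes named by the rule and for the ratio of summed levels, and both exceed the 95% critical value of Dixon's test for 6 values. Chance flags about 1 in 20 groups, so that 2.6 of the 52 groups examined would be past the limit by chance, and 2 were. No member of the family had a liver past the limit on that scale. Jun, which was not among these genes and is named after its values were seen, was at 127 CPM in fibrotic replicate 4 and at 48.6 to 56.8 CPM in the other 5 fibrotic livers.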

How the results depend on the processing

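The number of members called, 2 in the analysis of all libraries (0 pro-survival and 2 pro-death), was 1, a pro-death gene, under RLE and under upper quartile scaling and in DESeq2, where Bak1 had log2 fold changes of 0.50, 0.49 and 0.50, just short of the threshold, with no low-count filter and in limma-voom, where Bcl2l11 had FDRs of 0.0199 and 0.0185, and with a fold threshold of 1. It was also 1 without fibrotic replicate 4 and FLO replicate 3 together, an alternative chosen after seeing the data, where Bcl2l11 had a log2 fold change of 0.67 (FDR 0.0106). With 1 library left out, 0 to 2 members were called, 0 to 1 of them pro-survival and 0 to 2 pro-death. At an FDR of 0.05 with no fold threshold 3 of the 10 members were called (Bak1, Bcl2l11 and the pro-survival gene Bcl2l1). Of all 13416 genes tested, 3662 were called higher and 3332 lower at that setting. The log2 fold change of Bcl2 was between -0.22 and 0.058, and that of Bmf between -0.28 and 0.091, with 1 library left out, so neither had a stable direction.

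At an FDR of 0.05 with no fold threshold, 3662 of all 13416 genes tested were called higher and 3332 lower. Over a log2 fold change of 1 these counts were 907 and 790, and in DESeq2 they were 2415 and 2239 of 17631 genes tested. Among the related lists, the other Bcl2 family had 4 genes called in DESeq2 and 4 at an FDR of 0.05. The caspase list had 2 called in DESeq2, 1 to 3 with 1 library left out and 7 at an FDR of 0.05, with medians of 0.14 with at least 10 counts in every library and 0.16 in the 10 libraries. The death receptor list had a median of 0.16 with at least 10 counts and 1 gene called over a log2 fold change of 1. The partner list had 9 called at an FDR of 0.05 and 1 over a log2 fold change of 1, and the transcription factor list 7 and 0, with a median of -0.23 in the 10 libraries. The cause of these shifts was not tested.

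Of 586 other values recomputed for single genes, 553 kept their direction and side of the threshold, 24 no longer passed it, 6 newly passed it and 3 changed sign. Replicate numbers were not taken as pairs, since the deviations of livers with the same number correlated at -0.16 to 0.10 and 0 of 6 livers matched their own number best. With the replicate number as a replicate block, Bcl2l11 was at 0.91 and Bak1 at 0.51, both called. Bcl2 had the fewest counts, 18 to 55 per library.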
